A study of Mus musculus with 2 samples.

Results

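The miRNA genes of striated muscle, Mir1a-1, Mir1a-2, Mir133a-1, Mir133a-2, Mir133b, Mir206, Mir208a and Mir208b, were examined in small RNA libraries of mouse neural tube. The 8 genes were chosen by name as the classical miRNAs of skeletal and heart muscle, and 7 of them were found by Ensembl identifier among the 1973 miRNA gene rows of the count tables. Mir1a-2 was not analysed here. All embryos were of strain B6NCrl, aged 12.5 days, with males and females pooled. Replicate 1 was a pool of neural tubes from 120 embryos and replicate 2 a pool from 88, and the labels give no second tissue, age or treatment. The libraries held 4802411 and 4422853 reads on the own strand of a miRNA gene.

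MicroRNAs are short RNAs cut from a hairpin transcript. Bases 2 to 8 of the mature strand, the seed, select the messenger RNAs that are repressed. A small group of microRNAs of striated muscle is often called myomiRs. In skeletal muscle some of them are switched on by the myogenic transcription factors. miR-1 and miR-133 act in heart and skeletal muscle, miR-206 is best known from skeletal muscle and its precursors, and miR-208a and miR-208b lie inside the myosin heavy chain genes Myh6 and Myh7. The neural tube forms brain and spinal cord, and the somites that give rise to trunk muscle lie beside it in the embryo.

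The hairpins of the 4 genes that were detected (10 or more reads in each library) are shown because a gene count pools reads from the whole hairpin. Capitals mark the annotated mature arms (RefSeq, GRCm38.p6). Mir206 lies at chr1:20679010-20679082 and Mir133b at chr1:20682769-20682887, both on the plus strand, and Mir208a lies at chr14:54949060-54949142 and Mir208b at chr14:54975700-54975776, both on the minus strand.
Mir206: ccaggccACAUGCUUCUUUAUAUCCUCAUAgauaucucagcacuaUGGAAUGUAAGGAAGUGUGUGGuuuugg
Mir133b: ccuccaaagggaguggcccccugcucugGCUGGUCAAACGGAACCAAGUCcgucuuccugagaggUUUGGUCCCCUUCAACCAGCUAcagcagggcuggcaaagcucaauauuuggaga
Mir208a: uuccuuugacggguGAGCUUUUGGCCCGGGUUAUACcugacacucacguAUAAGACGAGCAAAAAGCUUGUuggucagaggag
Mir208b: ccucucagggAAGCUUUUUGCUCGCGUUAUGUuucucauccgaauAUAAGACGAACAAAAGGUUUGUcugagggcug

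The mature 3′ arms of these genes, with the seed in capitals, fall into 3 seed groups. They are shown with the 5′ arm of Mir499, a further heart and slow muscle miRNA, because its seed differs from that of the Mir208 arms by a single base.
miR-206-3p: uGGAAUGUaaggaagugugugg
miR-133b-3p: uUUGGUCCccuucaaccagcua
miR-208a-3p: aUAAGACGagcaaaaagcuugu
miR-208b-3p: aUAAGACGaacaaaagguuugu
miR-499-5p: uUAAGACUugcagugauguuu
Counted from 1 at the 5′ end, miR-208a-3p and miR-208b-3p had the same seed and differed at 3 of 22 positions (G10A, A16G and C18U, miR-208a-3p first). miR-208a-3p and miR-499-5p shared bases 2 to 7 and differed at the last seed base (G8U).

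How far a member can be counted depended on its sequence, since a read placed at more than 1 locus is in no gene's count. The hairpins of Mir206, Mir208a and Mir208b shared no stretch of 20 bases with any of 2201 other miRNA genes of GENCODE M21. miR-206-3p has the first 10 of its 22 bases, seed included, in common with the hairpins of both Mir1a genes, and that unbroken match ends there. The 5′ arm of Mir206 is identical to that of Mir1a-1 at 20 of 23 positions, with at most 11 bases in a row shared with the Mir1a-1 hairpin. For miR-133b-3p the match with the hairpins of both Mir133a genes runs over 21 of its 22 bases, so that it differs from them at its last base. Its 5′ arm shared at most 8 bases in a row with them. The hairpins of Mir1a-1 and Mir1a-2 have an identical stretch of 28 bases and those of Mir133a-1 and Mir133a-2 one of 31, in libraries whose size range is given as under 30. Reads mapping to several places numbered 3448592 in replicate 1 and 2698981 in replicate 2, which is 885 and 1299 times the reads of Mir206, and how many of them came from Mir1a or Mir133a was not tested.

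In uniquely placed reads Mir206 was the most abundant of the 7 genes, a ranking that leaves out the reads of Mir1a and Mir133a that map to more than 1 copy. It had 3895 reads in replicate 1 and 2078 in replicate 2, or 811 and 470 reads per 1000000 own-strand gene reads (CPM). The mean was 640 ± 241 CPM (SD, n = 2), which placed it 106th of the 371 detected genes. Mir206 held 92.0% of all member reads in replicate 1 and 90.4% in replicate 2. It outnumbered the other members together by 11.4 times and 9.45 times, so the order was the same in both libraries.

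Mir133b, which lies 3.69 kb downstream of Mir206, had 68 reads in replicate 1 and 41 in replicate 2. This corresponds to 14.2 and 9.27 CPM, a mean of 11.7 ± 3.46 (n = 2) and rank 304 of 371. Both genes are within the long noncoding RNA gene Gm28653 and on its strand: Mir133b lies in an exon of its 2 overlapping transcripts, and Mir206 lies in intron 2 of the longer transcript and overlaps exon 1 of the shorter. Despite this shared locus, Mir206 reads exceeded Mir133b reads by 57.3 times in replicate 1 and 50.7 times in replicate 2 (mean 54.0 ± 4.66). Mir133b thus made up 1.72% of the reads of the pair in replicate 1, with a 95% Clopper-Pearson interval of 1.33 to 2.17. In replicate 2 it made up 1.93% (1.39 to 2.62), and these intervals overlap. The uniquely mapped reads of Mir133b can lack those of its 3′ arm that end before the last base, and this share was not measured.

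**Figure D1:**
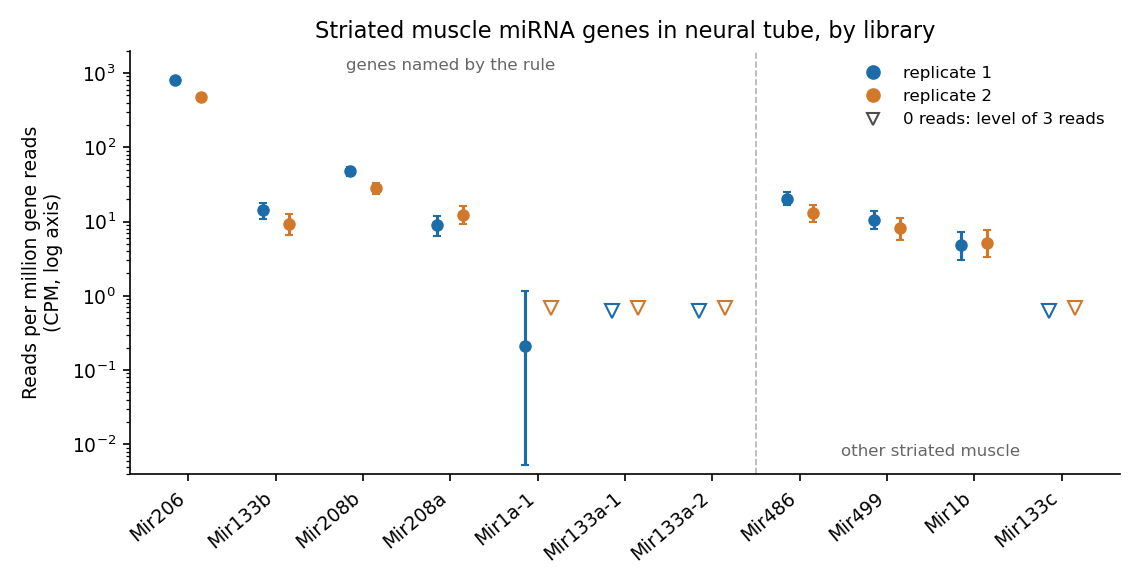
Level of each striated muscle miRNA gene in replicate 1 and replicate 2, as reads per 1000000 gene reads on a log axis, with exact 95% counting intervals; open triangles stand for 0 reads and are drawn at the level of 3 reads. Mir206 lies at 811 and 470 CPM, Mir208b at 47.7 and 28.0, and the highest of the others, Mir486, at 20.4 and 13.1.

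The heart-associated genes were detected at lower levels. Mir208b, in intron 31 of Myh7, which encodes the slow myosin heavy chain of embryonic heart and slow skeletal fibres, had 229 reads in replicate 1 and 124 in replicate 2. Its level was 47.7 and 28.0 CPM, with a mean of 37.9 ± 13.9 (n = 2) and rank 251 of 371. Mir208a, in intron 29 of Myh6, which encodes the alpha myosin heavy chain of the heart, had 43 reads in replicate 1 and 55 in replicate 2. Its level was 8.95 and 12.4 CPM, with a mean of 10.7 ± 2.46 and rank 308. The neighbours, 26.6 kb apart, thus had their higher level in different libraries. Of their joint reads Mir208a held 15.8% in replicate 1, with an interval of 11.7 to 20.7. In replicate 2 it held 30.7% (24.1 to 38.0). The intervals, which cover counting error only, do not overlap, and Mir208b exceeded Mir208a in both libraries, by 5.33 times and 2.25 times. By contrast the ratio of Mir206 to Mir208b was 17.0 in replicate 1 and 16.8 in replicate 2.

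**Figure D2:**
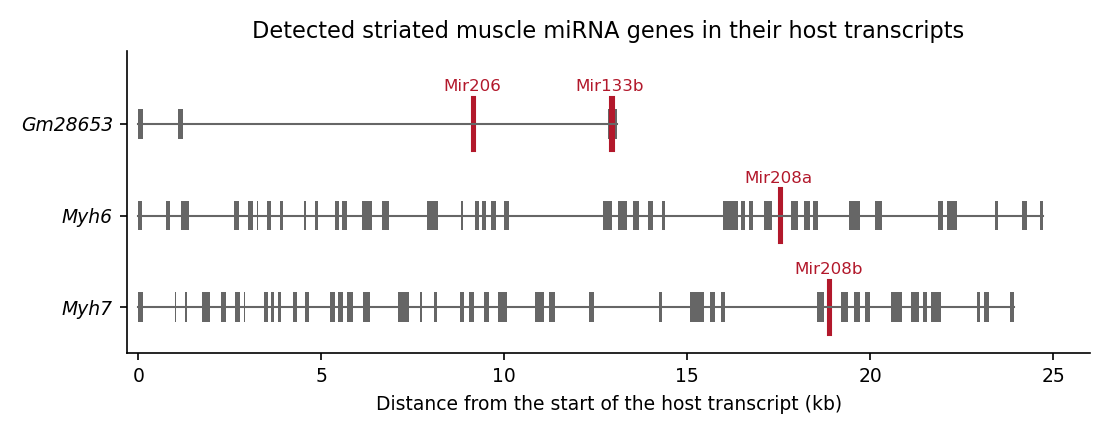
Position of the 4 detected genes (red) along 1 transcript of each host gene, in kb from the transcript start, with exons as grey boxes. Mir206 and Mir133b lie 3.69 kb apart in Gm28653, and Mir208a and Mir208b lie in introns of the 3′ part of Myh6 and Myh7.

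In order of mean level the detected members were Mir206, Mir208b, Mir133b and Mir208a. Mir206 exceeded Mir208b and Mir208b exceeded Mir133b in each library. Mir133b and Mir208a did not differ beyond their spread: the ratio of Mir133b to Mir208a was 1.58 in replicate 1 and 0.745 in replicate 2. With 2 libraries no exact test of such an order can go below p = 0.5.

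The remaining members gave almost no uniquely placed reads. Mir1a-1, on chromosome 2 at 180389048 to 180389124, had 1 read in replicate 1 and 0 in replicate 2. Mir133a-2, 9.25 kb from it, had 0 reads in both libraries, as had Mir133a-1. With 3 reads taken as the most that a count of 0 allows, the limit was 0.625 CPM in replicate 1 and 0.678 CPM in replicate 2. These limits apply to uniquely placed reads, and the identical stretches of the Mir1a and Mir133a copies described above mean that they do not limit the level of miR-1 or miR-133a. The 5′ arm of Mir1a-1 can be told apart, as its longest match with the Mir1a-2 hairpin is 14 of 23 bases, and its reads are within the single read counted. No member had a read on the opposite strand.

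Other striated muscle miRNAs, from a list of 6 symbols of which 4 had a row, were also near the lower end of the detected range in uniquely placed reads. Mir486, in an intron of the ankyrin gene Ank1 and also abundant in red cells, had 98 reads in replicate 1 and 58 in replicate 2 (20.4 and 13.1 CPM). It shares a stretch of at least 20 bases with Mir3107, annotated on the opposite strand at its place. Reads within that stretch can be placed at both genes and so be left out, and how many were was not tested. Mir499, in intron 19 of Myh7b, a further myosin gene, had 51 and 36 reads (10.6 and 8.14 CPM). Mir208b exceeded it by 4.49 times and 3.44 times, while the ratio of Mir208a to Mir499 was 0.843 in replicate 1 and 1.53 in replicate 2. Mir1b, annotated on the strand opposite to Mir1a-2, had 23 reads in each library, and Mir133c had 0 in both. Of the 3 detected genes of this list, Mir486 was called higher in replicate 1 (1.51-fold, adjusted p = 0.026) and Mir499 (1.27-fold) and Mir1b (0.896-fold) were not, by the exact binomial test described next.

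The replicate pools were compared by a two-sided exact binomial test of reads given the TMM-scaled totals, and p-values were adjusted by Benjamini-Hochberg over the 371 detected genes. It covers counting error and compares these 2 libraries, not conditions. Of the 4 detected members, 2 passed at an adjusted p under 0.05, Mir206 and Mir208b, both higher in replicate 1. Across all detected genes 53.1% passed and 26.1% passed as higher in replicate 1, so passing is common at this depth. With at least 1.5-fold as a further condition the same 2 members passed, and 7.28% of all detected genes passed as higher in replicate 1. In either direction 33 genes passed both conditions, 27 of them higher in replicate 1 and 6 lower. Mir206 was 1.68-fold higher in replicate 1 (log2 ratio 0.75, adjusted p = 1.54e-83, exact binomial test) and Mir208b 1.66-fold (log2 ratio 0.73, adjusted p = 1.24e-05). Mir133b had a like ratio, 1.49-fold, but did not pass (adjusted p = 0.0794). Mir208a had the opposite sign (log2 ratio -0.51, adjusted p = 0.14) and did not pass either.

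The spread of all detected genes between the libraries gives another scale. Their common coefficient of variation beyond counting error was 16.3%, which by itself corresponds to an SD of 0.33 in the log2 ratio of the libraries. Counting error adds to this SD, and adds more for genes with few reads such as Mir133b and Mir208a. The ranks that follow do not allow for it. By absolute log2 ratio Mir206 ranked 23rd, Mir208b 25th, Mir133b 46th and Mir208a 60th of 371. The median log2 ratio was 0.65 over the 4 detected members and 0.00 over all detected genes, with 3 of the 4 members higher in replicate 1.

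**Figure D3:**
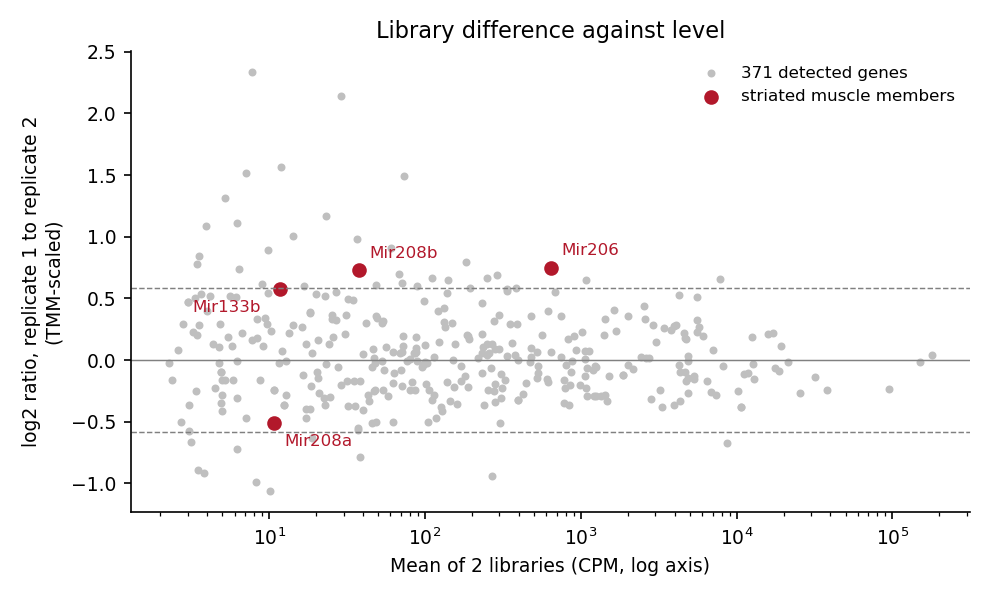
Log2 ratio of replicate 1 to replicate 2 (TMM-scaled) against mean level in CPM (log axis) for the 371 detected genes in grey, with the 4 detected striated muscle members in red and dashed lines at 1.5-fold. Mir206, Mir208b and Mir133b lie at 0.75, 0.73 and 0.57 and Mir208a at -0.51.

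Together the 7 counted members held 0.0882% of gene reads in replicate 1, with an exact 95% interval of 0.0856 to 0.0909. They held 0.0520% in replicate 2 (0.0499 to 0.0541), which gives a mean of 0.0701% ± 0.0256 (n = 2). This sum leaves out Mir1a-2 and the Mir1a and Mir133a reads that could not be placed, so it is a lower limit for the group, and the intervals do not cover that loss. Marker lists of other cell types were summed in the same libraries, from uniquely placed reads alone. The neural list, with 11 of its 13 counted genes detected, held 11320 CPM in replicate 1 and 9700 in replicate 2 and exceeded the members by 12.8 and 18.7 times. Of this, Mir219a-2 alone gave 6590 and 4499 CPM. Some neuronal genes with several copies were barely counted. Mir124a-1 had 8 and 9 reads, Mir124a-2 52 and 38, Mir124a-3 7 and 7, and Mir9-2 26 and 11. Mir9-3 was counted with 1288 and 1318 reads, and Mir9-1 was not analysed here. These ratios of uniquely placed reads are therefore no scale of neural against muscle RNA. Mir126a, the endothelial marker, exceeded the members by 23.0 and 35.1 times, and the mesenchyme list exceeded them by a mean of 16.1 ± 4.38 times. In replicate 1 Mir214 and Mir140 gave 6231 and 4949 of the 11463 CPM of the mesenchyme list. Its Mir199a-1 had 8 reads in replicate 1 and 18 in replicate 2, so this ratio rests mostly on those other genes. The members in turn exceeded the erythroid list by 9.65 and 5.86 times, and Mir206 alone exceeded the leukocyte list by 2.44 and 1.65 times. Of the 4 leukocyte entries 2 had a row, Mir223 and Mir155, and Mir142 was not analysed here. The leukocyte sum therefore leaves out Mir142. None of the marker genes with a row in these lists was at 0 in both libraries. In bulk tissue, fewer cells of a type and less RNA per cell cannot be told apart.

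Summed over each list, the ratio between the pools was nearer to 1 for the marker lists than for the members, except for the liver marker. The summed reads of the members, 92.0% and 90.4% of them from Mir206, were 1.65-fold higher in replicate 1, and those of the further striated muscle list 1.32-fold. Mir486 gave 98 of the 172 reads of that further list in replicate 1 and 58 of 117 in replicate 2. Its other detected genes, Mir499 (1.27-fold) and Mir1b (0.896-fold), were not called. The mesenchyme list was 1.12-fold, the neural list 1.14-fold, the leukocyte list 1.13-fold, the endothelial marker 1.08-fold and the erythroid list 1.00-fold, while the smooth muscle list was 0.915-fold. Single genes within the neural and mesenchyme sums lay further apart and in both directions. In the neural list 3 genes were called higher in replicate 1 and 4 lower, among them Mir128-2 at 1.57-fold, Mir219a-2 at 1.43-fold and Mir137 at 0.804-fold. In the mesenchyme list Mir214 was 1.25-fold and Mir199a-2 0.706-fold. The liver marker Mir122 had 155 reads in replicate 1 against 62 and was thus 2.24-fold higher there (adjusted p = 8.63e-08, exact binomial test). Whether the amount of adjoining tissue differed between the pools was not tested.

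**Figure D4:**
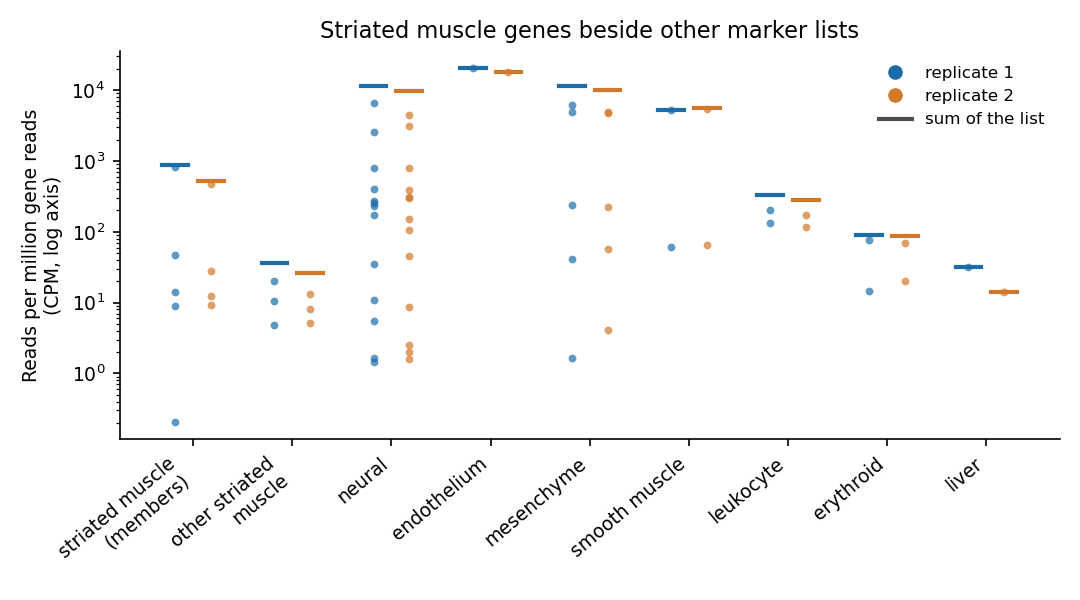
Level in CPM (log axis) of the genes of each marker list in replicate 1 and replicate 2 (points, genes with at least 1 read) and of the list summed (bars). In uniquely placed reads the striated muscle members sum to 882 and 520 CPM, of which Mir206 makes up most, below the neural, endothelial, mesenchyme and smooth muscle lists and above the leukocyte, erythroid and liver lists. The leukocyte list counts Mir223 and Mir155 alone.

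By the distance between log2(CPM + 1) values over the 2 libraries, the detected genes most like Mir206 were Mir28a (distance 0.21), Mir374b (0.25), Mir370 (0.42), Mir676 (0.45) and Mir1193 (0.49). Mir28a, the nearest, had 818 CPM in replicate 1 and 544 in replicate 2. For Mir208b they were Mir146 (0.22), Mir702 (0.23), Mir3093 (0.34), Mir3072 (0.38) and Mir30c-2 (0.43). Each of these 10 genes was higher in replicate 1, with Mir146 furthest apart at 48.7 against 24.0 CPM. With 2 libraries this measure reflects level and 1 ratio alone, and none of these genes is a member or on the marker lists.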

How the data were processed

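Small RNA of neural tube was counted in 2 libraries of 1 group. The authors deposited raw counts of reads on each miRNA gene, for both strands together and for each strand, on mm10 with annotation M4, per the file descriptions deposited with them. Which aligner and counter were used is not given in the sources used here. The strand column with the larger total was used as the own strand. Rows that name no gene made up 62.3% and 53.1% of all reads in replicates 1 and 2 and were left out. CPM was computed over all gene rows and not divided by length, since a read spans a mature miRNA. Capture differs between sequences, so ratios between genes are ratios of reads. PCR reads are not independent molecules, so intervals, limits and the exact binomial test cover counting error only.

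Symbols and gene context came from GENCODE M21 on the same assembly (1894 of 1973 identifiers matched), and printed sequences from RefSeq, where 5 members had an entry. edgeR 4.0.16 gave TMM scaling and the coefficient of variation (intercept alone); its quasi-likelihood test needs 2 groups and was not run. DESeq2 1.42.0 gave alternative size factors. Python 3.11.15, scipy 1.17.1 and R 4.3.3 were used, and the binomial test was checked on simulated data. These held counting error alone, so the check does not cover further variation between the pools. Named genes were the members, the further muscle list, marker lists where a result turns on them, and the 5 nearest genes of Mir206 and of Mir208b. The members and lists were chosen with earlier results of these data known.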

Additional observations from a re-analysis of the deposited data

How the results depend on the processing

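Of 48 alternative values, 41 kept their direction and side of the threshold or stayed within the spread (for numbers of genes, within 1.5-fold). Another 7 moved and 0 reversed. Some of the 41 could not have moved, so the tally is no measure of robustness. With 2 libraries, the value of a single replicate always lies within the SD around their mean. Counting both strands left the ratios between members unchanged, because no member had a read on the opposite strand. When the denominator included reads placed at more than 1 locus, the share held by the members fell from 0.0701% to 0.0418%, and the mean levels of Mir206, Mir208b and Mir208a were 382, 22.6 and 6.47 CPM, with a like shift for Mir133b, which follows from the larger denominator. Without Mir206 the share was 0.00604%. With at least 100 reads required in both libraries, 2 members were detected, Mir206 and Mir208b. A minimum of 1 read in either library left 5. Leaving out a replicate gave a share of 0.0520% to 0.0882%, a ratio of Mir206 to Mir133b of 50.7 to 57.3, of Mir206 to the other members of 9.45 to 11.4, and of Mir208b to Mir208a of 2.25 to 5.33. Mir206 and Mir208b passed the exact binomial test between the libraries under library totals, DESeq2 size factors and both other detection minimums (log2 ratios 0.72 to 0.79 and 0.70 to 0.77). Mir133b and Mir208a passed under none of those in which they were tested. With 2 libraries, the difference between the pools cannot be set against a replicate spread of its own.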

Other observations

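At the place of Mir1b, whose opposite strand carries Mir1a-2 in GENCODE M21, the opposite-strand column held 0 reads in both libraries, against 23 and 23 on the own strand. Reads within the 28 bases that Mir1a-2 shares with Mir1a-1 are placed at more than 1 locus and counted in neither. The 0 reads therefore do not limit the level of Mir1a-2. Mir486 was the only gene of the members and the further muscle list with reads on the opposite strand, 7 in replicate 1 and 1 in replicate 2. Mir3107, annotated on that strand, shares a stretch of at least 20 bases with Mir486.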
